A study of Homo sapiens with 12 samples.

Results

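Mitosis depends on the kinetochore, the protein assembly on each centromere that binds spindle microtubules, and on the spindle checkpoint, which delays anaphase until every chromosome is attached. Condensin shapes the chromosomes before division, cohesin holds sister chromatids together until the protease separase cuts it, and the central spindle and contractile ring then divide the cell. Most of the genes involved are transcribed in G2 and M phase and are low or silent in cells that do not divide. The 51 genes described here are the kinetochore, spindle checkpoint and condensin genes with their partners in cohesion, spindle assembly and cytokinesis. They were chosen by name and role out of 34595 genes with a value on the arrays. No measured value entered the rule, but earlier results of these data were known when the genes were chosen.

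The genes were followed in 3 human gastric cancer cell lines, KATO-III, SNU-216 and SNU-601, each sorted by the surface protein CD133, which is encoded by PROM1. SNU-216 is the name on the arrays, which is followed here, whereas the series design text has SNU201 where that line would stand. The CD133+ fraction was the top 10% of cells by CD133 stain and the CD133- fraction the bottom 6%, so that the cells between these gates were not measured. All 6 populations came from untreated cultures of established lines, and each was hybridised to 2 Illumina HT-12 v3 BeadChip arrays, which makes 12 arrays. Values are linear intensities, background-subtracted and quantile-normalized, and differences are CD133+ minus CD133- on the log2 scale after a floor of 32.7. The labels number the arrays of a population 1 and 2 without saying whether these were separate sorts. The p-values within a line and between lines therefore measure only the spread between these arrays, which may be technical. Those over the 3 lines are set against that spread together with the spread of the CD133 difference between lines. A call is an adjusted p below 0.05 by limma with the Benjamini-Hochberg adjustment over all 20147 genes tested, which are those that exceeded the floor on 2 arrays or more.

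PROM1 itself, the gene of the sorted protein, read 9513 and 8847 (CD133+) against 4056 and 4493 (CD133-) in KATO-III, 9273 and 8773 against 2232 and 2219 in SNU-216, and 4877 and 4677 against 1315 and 1324 in SNU-601, so that every CD133+ array of a line was above its CD133- arrays. The arrays were alike in scale, with 16320 to 16474 genes above the floor and median intensities from 25.98 to 27.1, and no array stood apart from its partner (Pearson r across genes 0.9927 to 0.9945 within a population). All 5 epithelial markers (EPCAM, CDH1, KRT8, KRT18 and KRT19) lay above the floor on every array, and none of 5 endothelial markers did on both arrays of any population. Of the epithelial markers CDH1 (E-cadherin) moved with the fractions, by -0.70 in KATO-III, 0.30 in SNU-216 and -0.25 in SNU-601 (adjusted p = 6.83e-05, 0.0109 and 0.0362), and KRT18 was lower in CD133+ cells of SNU-216 at -0.39 (adjusted p = 0.0176). Leaving out 1 array ended the CDH1 call of SNU-216 in 2 of 12 fits (SNU-216 CD133+ replicate 2 and CD133- replicate 1), that of SNU-601 in 7 (both KATO-III and both SNU-216 CD133+ arrays, SNU-601 CD133+ replicate 1 and both SNU-601 CD133- arrays), and the KRT18 call in 4 (the SNU-216 arrays). Markers of other cell types moved with the fractions in KATO-III. The summed intensity of 6 fibroblast markers was 117 to 172 (CD133+) against 777 to 832 (CD133-) in that line. LUM (lumican) read 64.4 and 91.6 on the CD133+ arrays and 743 and 783 on the CD133- arrays of KATO-III and was lower in CD133+ cells, at -3.31 (SE 0.16, adjusted p = 1.73e-06), while COL1A1 read 51.4 and 67.1 on the CD133+ arrays and 20.6 and 27.2 on the CD133- arrays of KATO-III and was called higher, at 0.84 (SE 0.20, adjusted p = 0.00977), at least 1.8-fold since its CD133- arrays lay under the floor, a call lost without KATO-III CD133+ replicate 2 (adjusted p = 0.071). The summed intensity of 7 leukocyte markers in KATO-III was 7986 to 8310.0 against 5738 to 5954. LYZ (lysozyme) was higher in the CD133+ cells, at 0.66 (SE 0.051, adjusted p = 1.98e-05), and CD14 lower, at -0.53 (SE 0.12, adjusted p = 0.00609), while PTPRC, CD3D, CD3E and MS4A1 did not pass the filter on dim genes. In the other two lines those sums were 97.7 to 99.7 against 24.1 to 44.4 (fibroblast) and 34.5 to 39.2 against 51.5 to 51.8 (leukocyte) for SNU-216, and 153 to 201 against 139 to 196 and 9127 to 9225 against 9473 to 10075 for SNU-601. LUM was called higher in CD133+ cells of SNU-216 (0.90, adjusted p = 0.00323). The part of these markers in the differences of the mitotic genes was not tested.

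Of the 51 genes, 50 were tested and 49 lay above the floor on all 12 arrays. NCAPH, a condensin subunit, was not above the floor on any array (-8.10 to 26.2) and has no difference here. NUF2, an outer kinetochore subunit, was above the floor on 7 arrays. The median SD of the mitotic genes between the 2 arrays of a population was 0.076 on the log2 scale, against 0.132 for all genes tested, and the highest was 0.331 for BUB1B.

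In each of the 3 lines more of the mitotic genes were called higher than lower in CD133+ cells. In KATO-III, 36 of the 50 genes were called higher, where 18.7% of all genes tested were, and CDC20 alone was called lower (20.6% of all genes). In SNU-216, 18 were called higher (14.6% of all genes) and CENPA, CENPE and CKAP5 were called lower (14.0% of all genes). In SNU-601, 37 were called higher (8.59% of all genes) and none lower (7.78% of all genes, with no member lower at an unadjusted p under 0.05 either). The median difference of the 50 genes was 0.55 in KATO-III (-0.42 to 2.10), 0.19 in SNU-216 (-0.48 to 0.78) and 0.37 in SNU-601 (0.01 to 1.02), while the median over all genes tested was 0.00 in each line. In bulk populations such as these, more cells in mitosis and more mRNA per cell in the CD133+ fraction cannot be told apart. The SNU-216 count fell to 11 when SNU-216 CD133+ replicate 1 was left out, and the KATO-III count of lower genes rose to 2 without KATO-III CD133+ replicate 1.

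**Figure D1:**
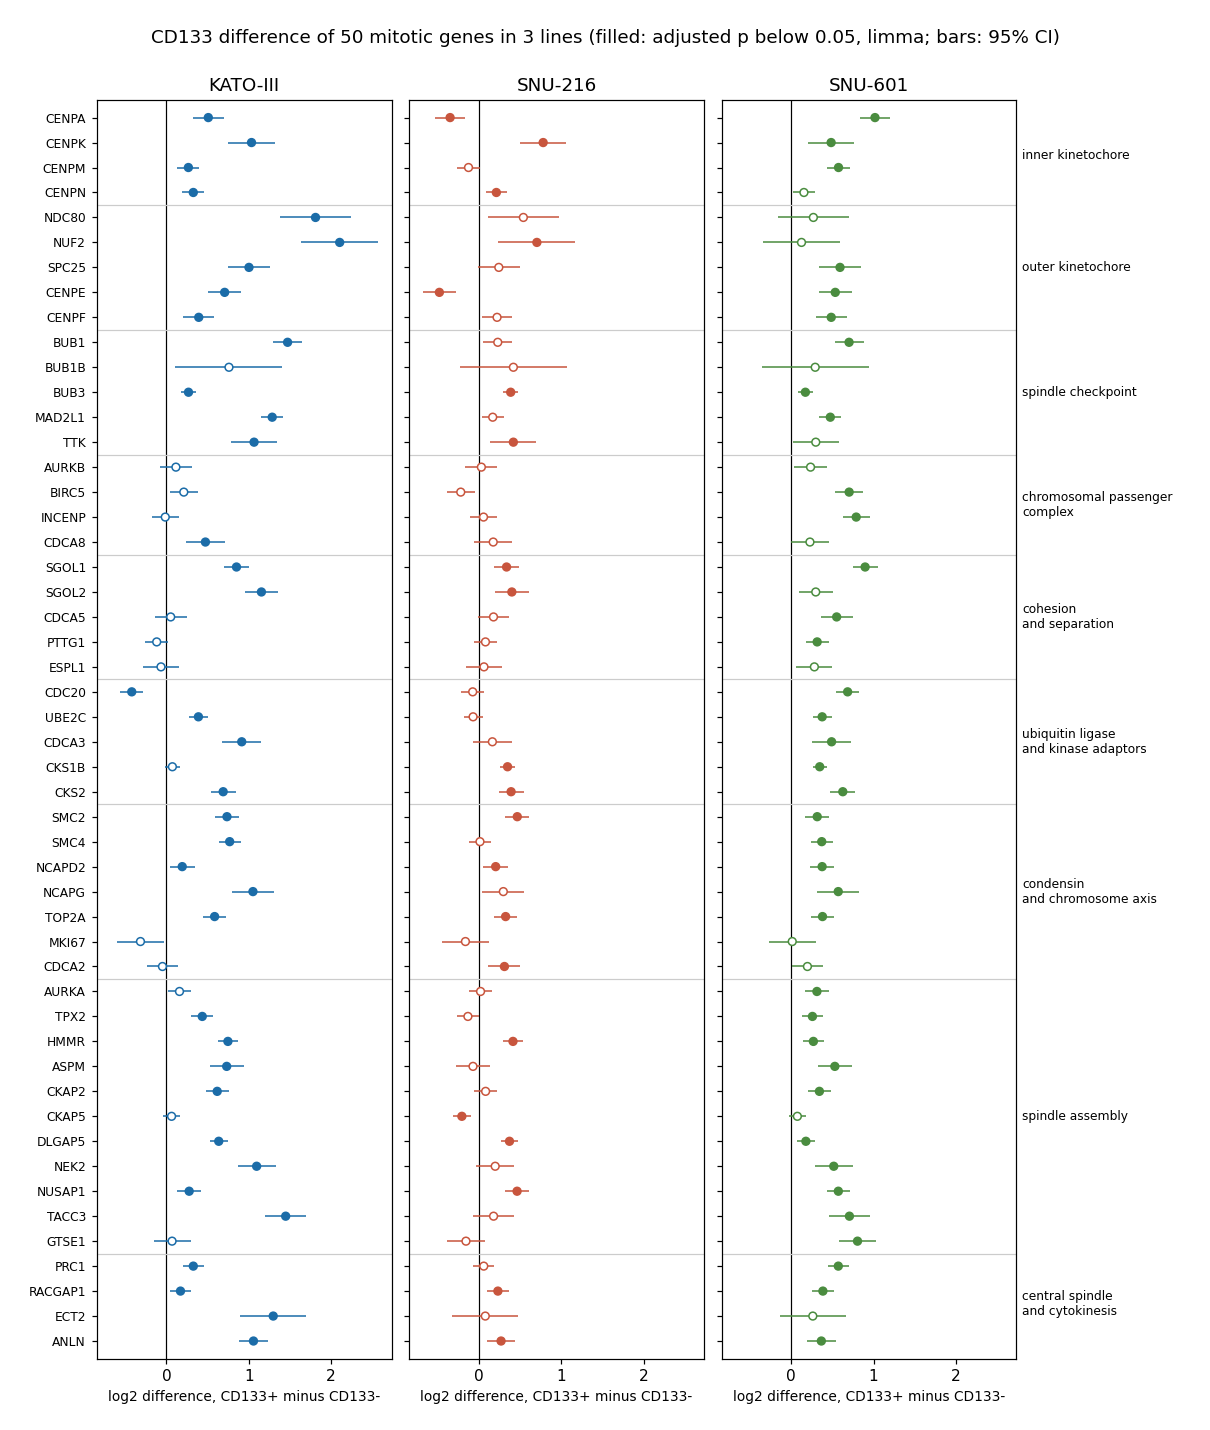
Difference in log2 intensity between CD133+ and CD133- cells (x axis) of the 50 genes tested, ordered by role (y axis), in each of the 3 lines. Points are limma estimates from 2 arrays per fraction, filled where the adjusted p is below 0.05, and bars are 95% confidence intervals. Most points lie right of 0, with 44 of 50 estimates above 0 in KATO-III, 39 in SNU-216 and 50 in SNU-601.

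The size of the difference varied most in KATO-III. There 13 genes differed by at least 1 on the log2 scale (NUF2, NDC80, BUB1, TACC3, ECT2, MAD2L1, SGOL2, NEK2, TTK, ANLN, NCAPG, CENPK and SPC25), against 3.36% of all genes tested. CENPA was the single gene to do so in SNU-601 (0.705% of all genes), and none did in SNU-216 (1.94% of all genes). The highest of a gene's 3 differences lay in KATO-III for 28 genes, in SNU-601 for 19 and in SNU-216 for 3, and the lowest lay in SNU-216 for 28. Both CD133+ arrays read above both CD133- arrays for 41 of 50 genes in KATO-III (32.7% of all genes tested), for 29 in SNU-216 (30.0%) and for 47 in SNU-601 (26.6%). For the other genes the fractions overlapped or were inverted.

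**Figure D2:**
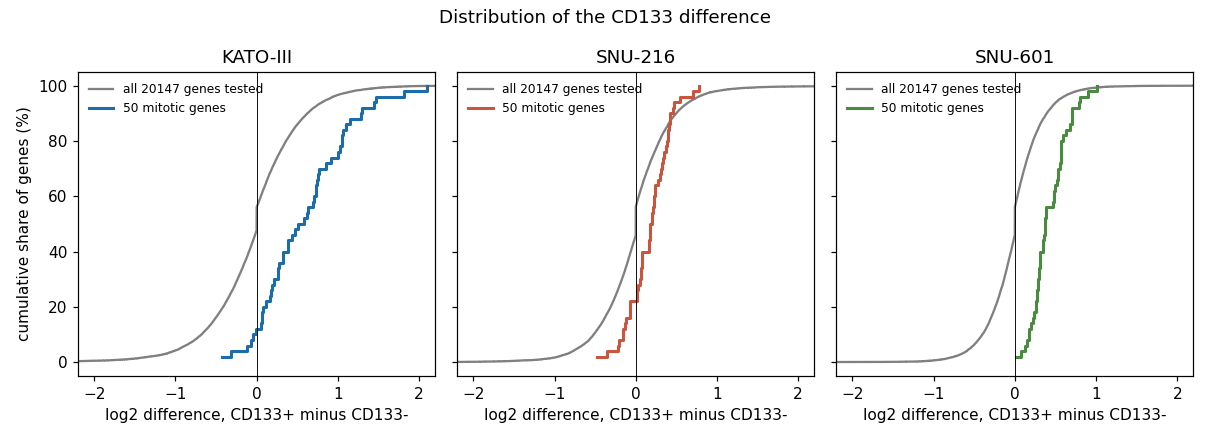
Cumulative share of genes in percent (y axis) against the log2 difference between CD133+ and CD133- cells (x axis), for the 50 mitotic genes (coloured steps) and for all 20147 genes tested (grey), by line. The coloured steps lie right of the grey curve over most of their range in each line, with medians of 0.55, 0.19 and 0.37 against 0.00 for all genes, and end below 1 in SNU-216.

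Across lines, 12 genes were called higher in all 3 (0.63% of all genes tested): CENPK, BUB3, SGOL1, CKS2, SMC2, NCAPD2, TOP2A, HMMR, DLGAP5, NUSAP1, RACGAP1 and ANLN. They come from nearly every role, from the kinetochore and checkpoint through condensin and the spindle to the cytokinesis genes. Leaving out 1 array at a time gave 9 to 11 such genes. SGOL1, CKS2 and TOP2A were among them in each of those 12 fits. No gene was called lower in all 3 lines (0.427% of all genes tested), and 35 had a positive estimate in all 3 (10.1%). CENPA, CENPE and CDC20 were called in opposite directions in different lines (10.9% of all genes tested), with 2 to 4 such genes when 1 array was left out. BUB1B, AURKB, ESPL1 and MKI67 were called in no line (43.8% of all genes tested), and that count ran from 2, without SNU-601 CD133- replicate 1, to 6, without SNU-216 CD133- replicate 2 or SNU-601 CD133+ replicate 1.

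With the cell line as a block, 27 of the 50 genes were called higher over the 3 lines (2.62% of all genes tested) and none lower (2.11%, and none lower at an unadjusted p under 0.05). The median difference was 0.37. This count takes the 2 arrays of a population as independent units and depends on that choice. When the 2 arrays of a population were averaged first, or when the population was a random block, 0 genes were called, with 20 and 33 of the 50 higher at an unadjusted p under 0.05 and lowest adjusted p-values of 0.796 and 0.102. PROM1, the gene of the sorted protein, rose by 1.66 over the lines (adjusted p = 0.00066) and had an adjusted p of 0.796 too when arrays were averaged, but it stayed called with the population as a random block (PROM1, over lines, adjusted p = 0.00123). The count was 10, 11, 11 and 12 without KATO-III CD133+ replicate 1, CD133+ replicate 2, CD133- replicate 1 and CD133- replicate 2. CENPK, BUB3, SGOL1, CKS2, SMC2, TOP2A, HMMR, DLGAP5 and NUSAP1 were called in each of the 12 fits that left out 1 array. For 8 genes (CENPK, BUB3, MAD2L1, SGOL1, SGOL2, TOP2A, HMMR and NEK2) each of the 6 CD133+ arrays read above each of the 6 CD133- arrays, whatever the line (0.352% of all genes tested). The study had selected CENPK, BUB3, SGOL1, TOP2A and HMMR on these same arrays, so that for them this is no separate result. MAD2L1 met the condition narrowly, with 1898 on a CD133+ array of SNU-601 against 1893 on a CD133- array of SNU-216.

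The promoters of these genes share short elements that the choice of genes did not use. Many genes of G2 and M phase carry a cell cycle genes homology region (CHR) near the transcription start, which DREAM and MuvB complexes bind, together with CCAAT boxes, which NF-Y binds. RefSeq windows from 250 bases before to 50 bases after the start (GRCh38.p14) were found for 42 of the 51 genes and were searched for CHR (TTTGAA or TTCGAA) and CCAAT on both strands. A CHR was present for 33 of 42 genes (78.6%), against 19.5% of 27305 genes with a window, and CCAAT for 31 (73.8%), against 39.7%. Both were present for 25 genes (59.5%, against 9.02%), and the letters of the 2 motifs overlapped in 2 windows. CENPE, CKAP2 and TACC3 held neither in their windows. A match is a description of the letters and not a binding site. The 200 bases before the start are shown for CENPA and CDC20, whose direction differed between lines, and for HMMR, CKS2 and TOP2A, which were called higher in all 3. Capitals mark CHR and CCAAT matches on either strand, so that TTCAAA and ATTGG are matches on the opposite strand:
CENPA (chr2:26785856-26786055, plus strand): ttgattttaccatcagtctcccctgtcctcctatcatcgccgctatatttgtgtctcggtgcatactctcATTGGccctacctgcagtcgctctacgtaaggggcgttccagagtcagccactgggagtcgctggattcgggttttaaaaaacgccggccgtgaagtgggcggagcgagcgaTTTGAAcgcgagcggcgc
CDC20 (chr1:43358781-43358980, plus strand): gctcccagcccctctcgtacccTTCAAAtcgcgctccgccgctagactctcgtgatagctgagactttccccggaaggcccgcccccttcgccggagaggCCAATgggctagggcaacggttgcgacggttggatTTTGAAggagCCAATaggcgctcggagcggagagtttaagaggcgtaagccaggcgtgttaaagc
HMMR (chr5:163460432-163460631, plus strand): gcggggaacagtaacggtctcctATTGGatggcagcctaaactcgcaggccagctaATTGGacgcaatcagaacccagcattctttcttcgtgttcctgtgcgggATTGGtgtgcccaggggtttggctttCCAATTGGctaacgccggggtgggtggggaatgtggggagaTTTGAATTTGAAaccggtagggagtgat
CKS2 (chr9:89310995-89311194, plus strand): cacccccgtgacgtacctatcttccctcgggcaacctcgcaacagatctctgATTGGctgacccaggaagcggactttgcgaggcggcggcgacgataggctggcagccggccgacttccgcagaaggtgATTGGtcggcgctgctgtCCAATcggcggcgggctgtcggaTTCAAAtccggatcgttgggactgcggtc
TOP2A (chr17:40417897-40418096, minus strand): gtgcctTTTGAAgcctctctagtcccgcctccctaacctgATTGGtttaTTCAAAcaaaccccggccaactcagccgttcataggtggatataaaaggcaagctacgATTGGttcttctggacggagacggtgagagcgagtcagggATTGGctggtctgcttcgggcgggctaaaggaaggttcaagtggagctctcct
CHR matches lie both close to the start (HMMR, as a tandem pair) and far from it (TOP2A). Of the other genes called higher in all 3 lines, CENPK held CCAAT and no CHR, and SMC2 and ANLN held a CHR and no CCAAT, while BUB3 and RACGAP1 had no window here.

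The inner kinetochore genes build the centromere platform. All 4 (CENPA, CENPK, CENPM and CENPN) were called higher in KATO-III (18.7% of all genes tested). In SNU-216 2 were called higher (14.6%) and 1 lower (14.0%), and in SNU-601 3 were called higher (8.59%). The 1 called lower is near the share of all genes. CENPK, a subunit of the constitutive centromere network, read 2203 and 2355 (CD133+) against 1114 and 1112 (CD133-) in KATO-III, 1595 and 2013 against 960.0 and 1133 in SNU-216, and 1709 and 1440.3 against 1111 and 1133 in SNU-601. Each CD133+ array was above each CD133- array. The difference was 1.03 (SE 0.12, adjusted p = 0.000196) in KATO-III, 0.78 (SE 0.12, adjusted p = 0.00158) in SNU-216 and 0.48 (SE 0.12, adjusted p = 0.0287) in SNU-601. The SNU-601 call was lost in 7 of the 12 fits that left out 1 array, each of the 4 KATO-III arrays, SNU-601 CD133+ replicate 1 and both SNU-601 CD133- arrays, with an adjusted p of up to 0.169. CENPA, the histone H3 variant that marks centromeric chromatin, read 2376 and 2419 (CD133+) against 1556 and 1826 (CD133-) in KATO-III, 2045 and 2104 against 2472 and 2823 in SNU-216, and 2537 and 2517 against 1219 and 1281 in SNU-601. The CD133+ arrays lay above the CD133- arrays in KATO-III and SNU-601 and below them in SNU-216. The differences were 0.51 (SE 0.082, adjusted p = 0.00116), -0.35 (SE 0.082, adjusted p = 0.0121) and 1.02 (SE 0.082, adjusted p = 0.000225) in the same order of lines, and they differed between lines (limma F-test, adjusted p = 9e-05). The SNU-216 call was lost without SNU-216 CD133+ replicate 1 or CD133- replicate 2 (adjusted p up to 0.0885).

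The outer kinetochore genes encode the microtubule-binding NDC80 complex and the large proteins CENPE and CENPF. All 5 were called higher in KATO-III (18.7% of all genes tested), with a median difference of 1.00. In SNU-216 NUF2 was called higher (14.6%) and CENPE lower (14.0%), which is near those shares. In SNU-601 SPC25, CENPE and CENPF were called higher (8.59%). NUF2, which pairs with NDC80 in that complex, was a dim gene at 169 and 117 (CD133+) against 32.5 and 14.8 (CD133-) in KATO-III, 81.2 and 77.4 against 57.0 and 41.6 in SNU-216, and 22.0 and 38.8 against 11.6 and 22.0 in SNU-601. Both KATO-III CD133- arrays and both SNU-601 CD133- arrays were at or under the floor of 32.7, as was 1 SNU-601 CD133+ array. NUF2 was therefore at least 4.29-fold higher in CD133+ cells of KATO-III with a log2 difference of 2.10 (SE 0.20, adjusted p = 6.57e-05). Its difference was 0.70 (SE 0.20, adjusted p = 0.0313) in SNU-216, a call lost in 5 of the 12 fits that left out 1 array (both KATO-III CD133- arrays, both SNU-216 CD133+ arrays and SNU-216 CD133- replicate 2, adjusted p up to 0.182). NDC80 itself read 652 and 668 on the CD133+ arrays and 217 and 164 on the CD133- arrays of KATO-III, a difference of 1.81 (SE 0.19, adjusted p = 9.43e-05). CENPE, the kinesin that carries chromosomes to the spindle equator, read 871 and 997 (CD133+) against 578 and 565 (CD133-) in KATO-III, 1125 and 1049 against 1456 and 1574 in SNU-216, and 1408 and 1370.2 against 1036 and 888 in SNU-601. Its CD133+ arrays were above the CD133- arrays in KATO-III and SNU-601 and below them in SNU-216, with no overlap in any line. The differences were 0.71 (SE 0.089, adjusted p = 0.000279), -0.48 (SE 0.089, adjusted p = 0.00378) and 0.53 (SE 0.089, adjusted p = 0.00466), and they differed between lines (adjusted p = 0.000208).

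Among the checkpoint genes, 4 of 5 were called higher in KATO-III (18.7% of all genes tested), 2 in SNU-216 (14.6%) and 3 in SNU-601 (8.59%). None was called lower (20.6%, 14.0% and 7.78% of all genes), which among 5 genes is near those shares. BUB1, the kinase that recruits checkpoint proteins to unattached kinetochores, read 1551 and 1534 (CD133+) against 567 and 547 (CD133-) in KATO-III, 2166 and 2038 against 1684 and 1906 in SNU-216, and 1358 and 1482 against 919 and 828 in SNU-601. The KATO-III CD133- arrays were the lowest of all 12. The difference was 1.47 (SE 0.078, adjusted p = 2.3e-06) in KATO-III, a 2.77-fold higher intensity, 0.23 (SE 0.078, adjusted p = 0.0564) in SNU-216 and 0.70 (SE 0.078, adjusted p = 0.000794) in SNU-601, and it differed between lines (adjusted p = 0.000113). MAD2L1, the checkpoint protein that holds back CDC20, read 4214 and 3900.5 (CD133+) against 1661 and 1669.6 (CD133-) in KATO-III, 2100.5 and 1960.5 against 1893 and 1722 in SNU-216, and 1898 and 1906 against 1365 and 1375 in SNU-601. The KATO-III CD133+ arrays stood far above the rest. Its difference was 1.28 (SE 0.059, adjusted p = 1.36e-06) there, 0.17 (SE 0.059, adjusted p = 0.0647) in SNU-216 and 0.47 (SE 0.059, adjusted p = 0.00129) in SNU-601 (difference between lines, adjusted p = 4.38e-05). BUB3, which binds BUB1 and BUB1B, had small differences in all 3 lines. It read 4022 and 4003 (CD133+) against 3319.8 and 3344 (CD133-) in KATO-III, 3747 and 3825 against 2915 and 2877 in SNU-216, and 3546 and 3642 against 3102 and 3282 in SNU-601. Each CD133+ array was above each CD133- array, by 0.27 (SE 0.040, adjusted p = 0.000695), 0.39 (SE 0.040, adjusted p = 0.000165) and 0.17 (SE 0.040, adjusted p = 0.0194). The SNU-601 call was lost without SNU-601 CD133+ replicate 2 or CD133- replicate 1 (adjusted p up to 0.0909). BUB1B had estimates of 0.76, 0.42 and 0.29 with an SE of 0.28, and was not called in any line.

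In the chromosomal passenger complex AURKB is the kinase and the other members target it. Of its 4 genes CDCA8 was the single one called in KATO-III, where it was higher (18.7% of all genes tested). None was called in SNU-216 (14.6% of all genes higher and 14.0% lower), and BIRC5 and INCENP were called higher in SNU-601 (8.59%). Among 4 genes the KATO-III and SNU-216 counts are not far from those shares, while the SNU-601 count is above its share. INCENP, the scaffold of the complex, read 358 and 395 (CD133+) against 375 and 384 (CD133-) in KATO-III, 992 and 1102 against 1019 and 991 in SNU-216, and 539 and 527 against 313 and 304 in SNU-601. The fractions overlapped in KATO-III and SNU-216 and were apart in SNU-601. The differences were -0.01 (SE 0.072, adjusted p = 0.979), 0.06 (SE 0.072, adjusted p = 0.67) and 0.79 (SE 0.072, adjusted p = 0.000366), and they differed between lines (adjusted p = 0.000476). CDCA8, the subunit borealin, read 2764 and 2864 (CD133+) against 2014 and 2039 (CD133-) in KATO-III, 4155 and 4515 against 3509 and 4199 in SNU-216, and 2374 and 2802 against 2318 and 2097 in SNU-601. Its difference was 0.47 (SE 0.10, adjusted p = 0.00555) in KATO-III, 0.17 (SE 0.10, adjusted p = 0.264) in SNU-216 and 0.23 (SE 0.10, adjusted p = 0.184) in SNU-601. AURKB had estimates of 0.12, 0.03 and 0.23, none called.

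Of the genes of cohesion and separation, the shugoshins SGOL1 and SGOL2, which shield centromeric cohesin, rose in KATO-III and SNU-216, and SGOL1 rose in SNU-601 as well. SGOL1 read 1135 and 1034 (CD133+) against 615 and 588 (CD133-) in KATO-III, 953 and 974 against 790.1 and 736 in SNU-216, and 1142 and 1087 against 618 and 580.1 in SNU-601. All 6 CD133+ arrays read above all 6 CD133- arrays. The differences were 0.85 (SE 0.067, adjusted p = 1.92e-05), 0.34 (SE 0.067, adjusted p = 0.00514) and 0.90 (SE 0.067, adjusted p = 0.000166), and they differed between lines (adjusted p = 0.00211), with the lowest in SNU-216. SGOL2 read 321 and 326 (CD133+) against 143 and 148 (CD133-) in KATO-III, 401 and 394 against 290.0 and 313 in SNU-216, and 363 and 323 against 291 and 266 in SNU-601. The KATO-III CD133- arrays were less bright than all others. Its difference was 1.15 (SE 0.090, adjusted p = 1.88e-05) in KATO-III, 0.40 (SE 0.090, adjusted p = 0.00947) in SNU-216 and 0.30 (SE 0.090, adjusted p = 0.0555) in SNU-601 (difference between lines, adjusted p = 0.00116). The SNU-216 call of SGOL2 was lost without SNU-216 CD133- replicate 1 (adjusted p = 0.0512). CDCA5 (sororin, which stabilises cohesin) and PTTG1 (securin, the inhibitor of separase) were called higher in SNU-601, by 0.55 (SE 0.085, adjusted p = 0.00323) and 0.31 (SE 0.061, adjusted p = 0.00905), and in neither other line. Their differences differed between lines (adjusted p = 0.0192 and 0.00904). The PTTG1 call was lost without SNU-601 CD133+ replicate 1 or CD133- replicate 2 (adjusted p up to 0.0619). ESPL1, separase, was called in no line (-0.07, 0.06 and 0.28).

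The ubiquitin ligase and kinase adaptors were called higher in SNU-601 for all 5 genes (8.59% of all genes tested). In KATO-III 3 were called higher (18.7%) and CDC20 lower (20.6%), and in SNU-216 CKS1B and CKS2 were called higher (14.6%). The 1 called lower is near the share of all genes. CDC20, the activator of the anaphase-promoting complex and the target of the checkpoint, read 7747 and 7824 (CD133+) against 10266 and 10575 (CD133-) in KATO-III, 13609 and 14226 against 14468 and 14836 in SNU-216, and 11952 and 13652 against 8019 and 7884 in SNU-601. CD133+ cells were the dimmer fraction in KATO-III and the brighter one in SNU-601, with no overlap in either. The differences were -0.42 (SE 0.060, adjusted p = 0.000571), -0.07 (SE 0.060, adjusted p = 0.443) and 0.68 (SE 0.060, adjusted p = 0.000316), and they differed between lines (adjusted p = 5.14e-05). CDC20 and MAD2L1, its checkpoint inhibitor, thus moved in opposite directions in KATO-III and in the same direction in SNU-601. CKS2, a small adaptor of cyclin-dependent kinases, read 9259 and 8466 (CD133+) against 5558 and 5429 (CD133-) in KATO-III, 8798 and 8169 against 6498 and 6429 in SNU-216, and 3856 and 3584 against 2297 and 2528 in SNU-601. The difference was 0.69 (SE 0.067, adjusted p = 6.18e-05), 0.39 (SE 0.067, adjusted p = 0.00236) and 0.63 (SE 0.067, adjusted p = 0.000695), and a difference between lines was not called (adjusted p = 0.0607). CDCA3, an adaptor for the degradation of WEE1, read 776 and 880.2 (CD133+) against 416 and 463 (CD133-) in KATO-III, 888 and 876 against 825 and 751 in SNU-216, and 801 and 816 against 633 and 524 in SNU-601. It was 0.91 (SE 0.10, adjusted p = 0.000143) in KATO-III, 0.16 (SE 0.10, adjusted p = 0.302) in SNU-216 and 0.49 (SE 0.10, adjusted p = 0.0131) in SNU-601. The SNU-601 call was lost without either SNU-601 CD133+ array or without CD133- replicate 2 (adjusted p up to 0.0739).

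**Figure D3:**
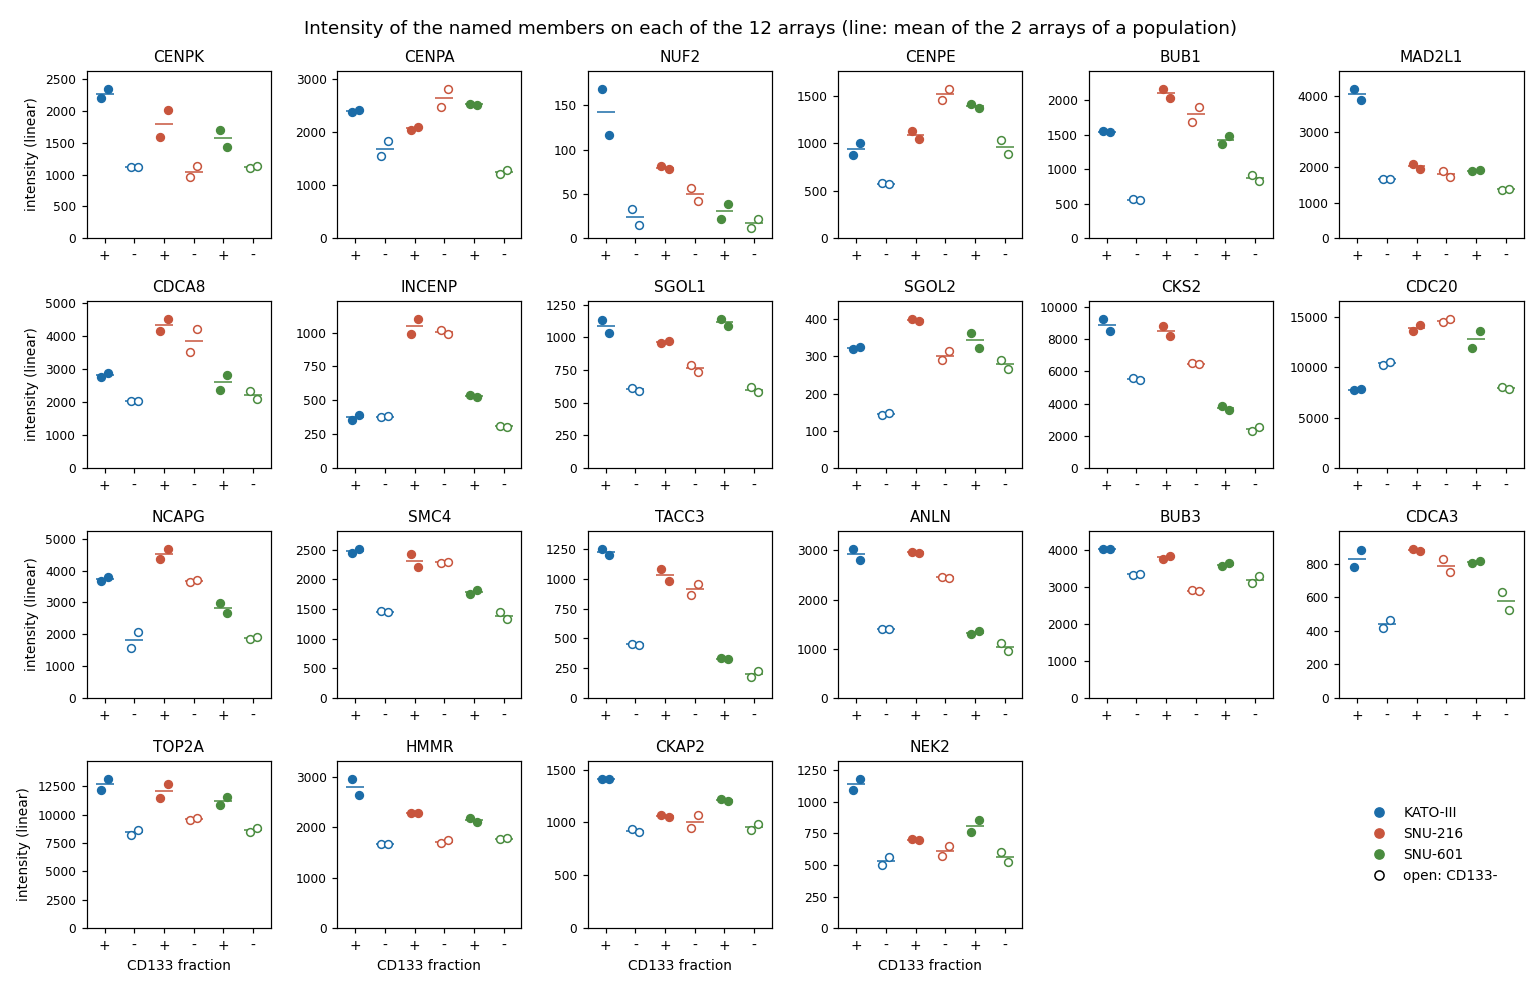
Linear intensity (y axis) of 22 of the genes on each of the 12 arrays, by CD133 fraction (x axis) and line (colour). Each point is 1 array, filled for CD133+ and open for CD133- cells, and the short lines are means of the 2 arrays. CENPA and CENPE are inverted in SNU-216, and CDC20 in KATO-III.

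Condensin and chromosome axis genes were called higher for 5 of 7 in KATO-III (18.7% of all genes tested), 4 in SNU-216 (14.6%) and 5 in SNU-601 (8.59%). None was called lower (20.6%, 14.0% and 7.78% of all genes), which among 7 genes is not far from those shares. NCAPG, a subunit that condensin I alone contains, read 3679.5 and 3796 (CD133+) against 1572 and 2073 (CD133-) in KATO-III, 4368 and 4686 against 3645 and 3720.0 in SNU-216, and 2989.5 and 2659 against 1868 and 1932 in SNU-601. CD133+ arrays were above CD133- arrays in each line. The difference was 1.05 (SE 0.11, adjusted p = 0.000111) in KATO-III, 0.30 (SE 0.11, adjusted p = 0.0847) in SNU-216 and 0.57 (SE 0.11, adjusted p = 0.01) in SNU-601, where the call was lost without SNU-601 CD133+ replicate 1 or CD133- replicate 1 (adjusted p up to 0.072). SMC4, one of the ATPase arms of condensin, read 2444 and 2514 (CD133+) against 1470.4 and 1442 (CD133-) in KATO-III, 2420.5 and 2199 against 2271 and 2299 in SNU-216, and 1758 and 1819.7 against 1444 and 1327 in SNU-601. Its fractions overlapped in SNU-216 and were apart in the other two lines, with differences of 0.77 (SE 0.058, adjusted p = 1.64e-05), 0.01 (SE 0.058, adjusted p = 0.99) and 0.37 (SE 0.058, adjusted p = 0.00361) that differed between lines (adjusted p = 0.000364). SMC2, the partner arm, had differences of 0.73 (SE 0.064, adjusted p = 3.36e-05), 0.47 (SE 0.064, adjusted p = 0.000731) and 0.31 (SE 0.064, adjusted p = 0.0109). In SNU-216 SMC2 was called and SMC4 was not, and the contrast between the 2 genes was not tested. TOP2A, the topoisomerase that untangles sister chromatids, read 12182 and 13167 (CD133+) against 8203 and 8693 (CD133-) in KATO-III, 11500 and 12694 against 9549 and 9745 in SNU-216, and 10881 and 11576 against 8463 and 8802 in SNU-601. Each CD133+ array was above each CD133- array, by 0.58 (SE 0.063, adjusted p = 0.000116), 0.32 (SE 0.063, adjusted p = 0.00477) and 0.38 (SE 0.063, adjusted p = 0.00466), and a difference between lines was not called (adjusted p = 0.0837). MKI67, the gene of the Ki-67 antigen that coats mitotic chromosomes and the usual proliferation marker of pathology, was called in no line. It read 212 and 175 (CD133+) against 241 and 238 (CD133-) in KATO-III, 65.5 and 59.1 against 69.7 and 69.5 in SNU-216, and 124 and 129 against 124 and 126 in SNU-601, and the CD133+ arrays were the lower ones in KATO-III and SNU-216. The differences were -0.31 (SE 0.12, adjusted p = 0.0788), -0.16 (SE 0.12, adjusted p = 0.415) and 0.01 (SE 0.12, adjusted p = 1.0).

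Spindle assembly genes were called higher for 8 of 11 in KATO-III (18.7% of all genes tested), 3 in SNU-216 (14.6%) and 10 in SNU-601 (8.59%). The share of all genes called lower in SNU-216 was 14.0%. CKAP5, a microtubule polymerase, was called lower in SNU-216, at -0.21 (SE 0.047, adjusted p = 0.0103), a call lost without SNU-216 CD133- replicate 2 (adjusted p = 0.0519). TACC3, which binds CKAP5 and clathrin on spindle fibres, read 1253 and 1201 (CD133+) against 457 and 443 (CD133-) in KATO-III, 1079.8 and 986 against 866 and 959 in SNU-216, and 333 and 329 against 179.5 and 229 in SNU-601. The fractions did not overlap within any line, and SNU-601 was the dimmest line. The differences were 1.45 (SE 0.11, adjusted p = 1.59e-05), a 2.73-fold higher intensity, 0.18 (SE 0.11, adjusted p = 0.291) and 0.71 (SE 0.11, adjusted p = 0.00334), and they differed between lines (adjusted p = 0.000637). HMMR, a spindle protein also known as the hyaluronan receptor RHAMM, read 2957 and 2632 (CD133+) against 1663 and 1664 (CD133-) in KATO-III, 2276 and 2286 against 1688 and 1735 in SNU-216, and 2174 and 2092 against 1761 and 1781 in SNU-601. All CD133+ arrays lay above all CD133- arrays. Its differences were 0.75 (SE 0.055, adjusted p = 1.4e-05), 0.41 (SE 0.055, adjusted p = 0.000644) and 0.27 (SE 0.055, adjusted p = 0.0118), and the SNU-601 call was lost without SNU-601 CD133+ replicate 1 or CD133- replicate 1 (adjusted p up to 0.0681). NEK2, the kinase that parts the centrosomes, read 1096 and 1182 (CD133+) against 503 and 565 (CD133-) in KATO-III, 703 and 694 against 573 and 647 in SNU-216, and 758 and 856 against 605 and 524 in SNU-601. KATO-III had the widest gap between its fractions. The differences of NEK2 were 1.09 (SE 0.10, adjusted p = 4.86e-05), 0.20 (SE 0.10, adjusted p = 0.197) and 0.52 (SE 0.10, adjusted p = 0.00967), and the SNU-601 call was lost without SNU-601 CD133+ replicate 2 or CD133- replicate 2 (adjusted p up to 0.0658). CKAP2, a microtubule stabiliser, read 1413 and 1408 (CD133+) against 936 and 905 (CD133-) in KATO-III, 1067 and 1055 against 942 and 1066 in SNU-216, and 1223 and 1199 against 931 and 981 in SNU-601. Its fractions overlapped in SNU-216, and the differences were 0.62 (SE 0.062, adjusted p = 7.49e-05), 0.08 (SE 0.062, adjusted p = 0.402) and 0.34 (SE 0.062, adjusted p = 0.00659).

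The 4 genes of the central spindle and cytokinesis were all called higher in KATO-III (18.7% of all genes tested). Of them 2 were called higher in SNU-216 (14.6%) and 3 in SNU-601 (8.59%). ANLN, the anillin that scaffolds the contractile ring, read 3033 and 2805 (CD133+) against 1409.7 and 1396 (CD133-) in KATO-III, 2975 and 2944 against 2463 and 2446 in SNU-216, and 1305 and 1358 against 1128 and 947 in SNU-601. CD133+ arrays were above CD133- arrays in each line, but the SNU-601 arrays were dimmer than those of the other lines in both fractions. Its differences were 1.06 (SE 0.076, adjusted p = 1.24e-05), 0.27 (SE 0.076, adjusted p = 0.0272) and 0.36 (SE 0.076, adjusted p = 0.0126), and they differed between lines (adjusted p = 0.00075). The SNU-216 call was lost without any 1 of the 4 SNU-216 arrays (adjusted p up to 0.115), and the SNU-601 call without SNU-601 CD133+ replicate 2 (adjusted p = 0.0732). ECT2, the exchange factor that activates RhoA at the ring, read 1999.7 and 2344 on the CD133+ arrays and 1010.2 and 769.8 on the CD133- arrays of KATO-III, a difference of 1.30 (SE 0.18, adjusted p = 0.000431), and was not called in SNU-216 (0.08) or SNU-601 (0.26).

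The CD133 difference itself differed between lines for 35 of the 50 genes (limma F-test, 44.4% of all genes tested). Over the 50 genes, which are not independent, Pearson's r between the differences of KATO-III and SNU-216 was 0.479, between KATO-III and SNU-601 0.0301 and between SNU-216 and SNU-601 -0.249, each from separate arrays. Over all genes tested, r was 0.163, 0.116 and -0.0807 in the same order of line pairs. Of the genes called higher, KATO-III and SNU-601 had 29 in common, which was 29 of 36 in the one and 29 of 37 in the other, and SNU-216 had 16 of its 18 in common with KATO-III and 13 with SNU-601. Lists that hold 36, 18 and 37 of the 50 genes share many by their length alone. These counts therefore do not measure agreement between the lines. Of all genes tested, 18.7%, 14.6% and 8.59% were called higher in KATO-III, SNU-216 and SNU-601.

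The lines also differed in the level of these genes, with both fractions averaged. In SNU-216 29 genes were called higher than in KATO-III (31.7% of all genes tested) and 10 lower (30.3%). In SNU-601 15 were called higher than in KATO-III (29.9%) and 21 lower (28.7%), and 6 were called higher (27.1%) and 32 lower (29.4%) than in SNU-216. SNU-216, the line with the lowest median CD133 difference, had 29 genes called brighter than in KATO-III and 32 called brighter than in SNU-601. INCENP was 1.44 higher on the log2 scale in SNU-216 than in KATO-III, and the difference of TACC3, SNU-601 minus KATO-III, was -1.52. For 20 of the 50 genes the largest difference between lines exceeded the largest difference between fractions, which held for 61.9% of all genes tested. The median of the largest difference between fractions was 0.70 over the 50 genes and that of the largest difference between lines 0.62, while over all genes tested these were 0.50 and 0.70.

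**Figure D4:**
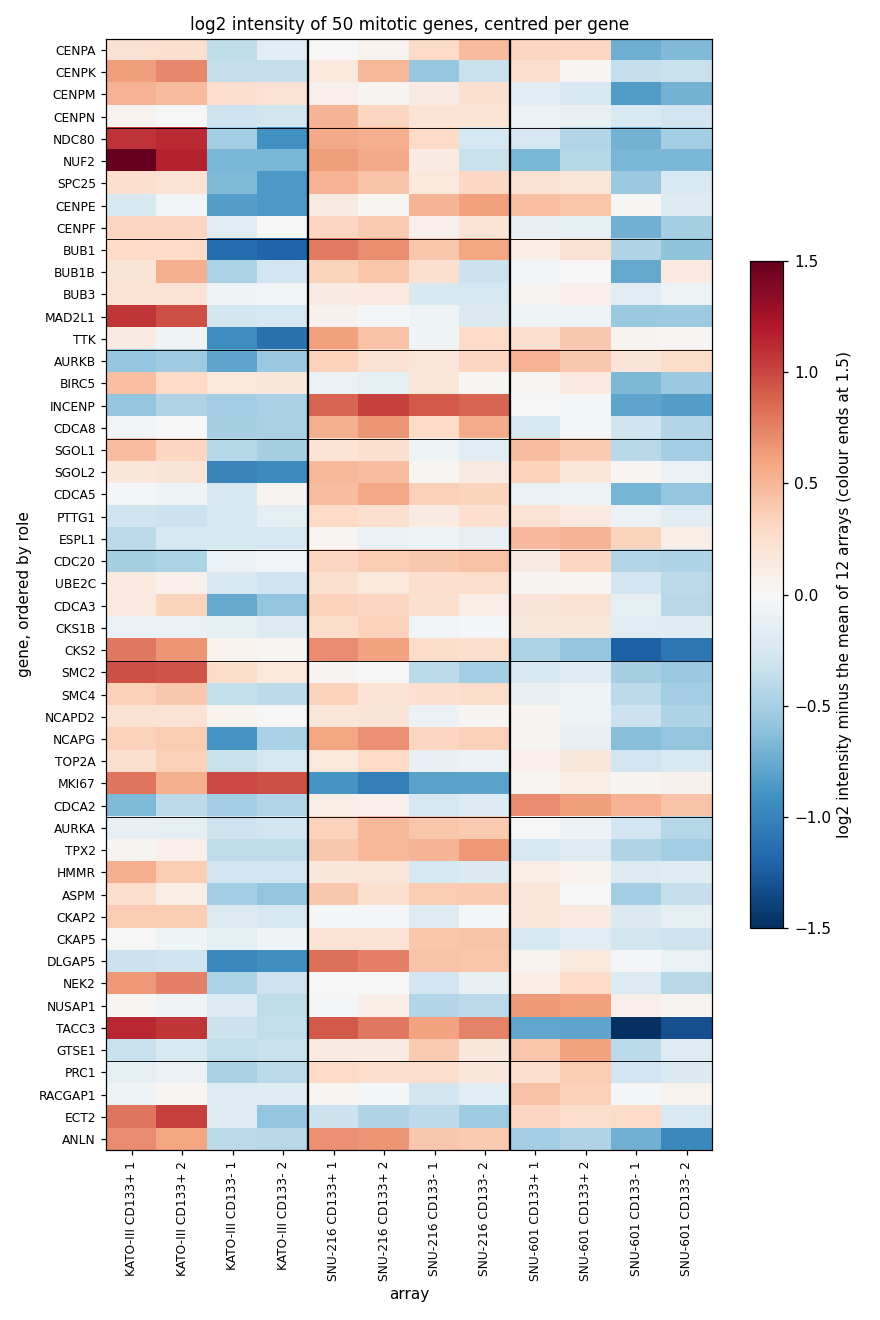
Log2 intensity of the 50 genes (y axis, ordered by role) on the 12 arrays (x axis), each gene centred on its mean over the arrays, with red for higher and blue for lower values and the colour ending at 1.5. The CD133- mean lay below the mean of the 12 arrays for 44 of the 50 genes in KATO-III, 42 in SNU-601 and 19 in SNU-216, and the CD133+ mean lay above it for 33, 30 and 44 in the same order of lines.

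A signal-to-noise ratio, which the study also used with a formula not given in the sources used here, was taken as the CD133+ minus the CD133- mean, each over 6 arrays, set against the summed SDs of both. Computed on the linear intensities, it was above 1 for 8 of the 51 genes (0.558% of all genes with a value) and below -1 for none (0.402%). They were SGOL1 (2.38), TOP2A (2.13), CENPK (1.85), HMMR (1.81), BUB3 (1.65), CKAP2 (1.25), NEK2 (1.19) and CDCA3 (1.13), and the next values were those of SGOL2 (0.995), SPC25 (0.983) and CKS1B (0.976). The SDs of this ratio hold the spread between lines as well as that between arrays. The study lists SGOL1, TOP2A, CENPK, HMMR and BUB3 with the same values. The ratio thus applies the study's kind of selection again to these arrays and is no separate result. Over all genes with a value, 193 were above 1 and 139 below -1. Both counts are higher than those the study reports at these thresholds, so its selection was not repeated exactly. The count of the 51 genes above 1 was 13 without SNU-216 CD133- replicate 1.

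The rest of the kinetochore, checkpoint, cohesin and anaphase-promoting complex genes were examined from lists of the known subunits. Of 64 such genes 62 were tested, and 41 were called higher and 6 lower in KATO-III (18.7% and 20.6% of all genes tested), 16 and 8 in SNU-216 (14.6% and 14.0%), and 21 and 5 in SNU-601 (8.59% and 7.78%). Their median difference was 0.47 in KATO-III, 0.00 in SNU-216 and 0.14 in SNU-601, which is below that of the 50 genes in each line, a contrast that was not tested. The other outer kinetochore genes were called higher for 10 of 11 in KATO-III, 4 in SNU-216 (1 lower) and 6 in SNU-601. Among them CASC5, the scaffold also called KNL1, had differences of 0.93 (SE 0.12, adjusted p = 0.000253), 0.26 (SE 0.12, adjusted p = 0.133) and 1.02 (SE 0.12, adjusted p = 0.000866), and ZWINT, which docks onto CASC5, of 0.74 (SE 0.10, adjusted p = 0.000409), 0.73 (SE 0.10, adjusted p = 0.000741) and 0.39 (SE 0.10, adjusted p = 0.0295). The other inner kinetochore genes were called higher for 11 of 16 in KATO-III (1 lower), 3 in SNU-216 (1 lower) and 4 in SNU-601. CENPI and CENPQ, subunits of the centromere network, had differences of 0.53 (SE 0.12, adjusted p = 0.00586) and 1.79 (SE 0.26, adjusted p = 0.000582) in KATO-III, of 0.55 (SE 0.12, adjusted p = 0.00674) and 1.15 (SE 0.26, adjusted p = 0.00932) in SNU-216, and of 0.71 (SE 0.12, adjusted p = 0.00402) and -0.13 (SE 0.26, adjusted p = 0.872) in SNU-601. Both SNU-216 CD133- arrays of CENPQ lay under the floor, so that CENPQ was at least 2.22-fold higher in the CD133+ cells of that line. The SNU-216 call of CENPQ was lost without SNU-216 CD133+ replicate 1 or CD133- replicate 2 (adjusted p = 0.0578 and 0.0509), and the SNU-601 call of ZWINT without either SNU-601 CD133+ array or CD133- replicate 2 (adjusted p up to 0.125).

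Other checkpoint genes were called higher for 4 of 7 in KATO-III, 2 in SNU-216 and 5 in SNU-601, with 1 lower in each line. Of all genes tested, 18.7% were called higher and 20.6% lower in KATO-III, 14.6% and 14.0% in SNU-216, and 8.59% and 7.78% in SNU-601. TRIP13, the ATPase that remodels the checkpoint protein MAD2L1, had differences of 0.69 (SE 0.049, adjusted p = 1.19e-05), 0.03 (SE 0.049, adjusted p = 0.758) and 0.54 (SE 0.049, adjusted p = 0.00036). MAD1L1, which carries MAD2L1 to kinetochores, had estimates of 0.36 (SE 0.18, adjusted p = 0.162), -1.01 (SE 0.18, adjusted p = 0.00313) and -0.31 (SE 0.18, adjusted p = 0.324). Cohesin and condensin II genes were mixed, with 8 of 14 called higher and 2 lower in KATO-III, 4 and 2 in SNU-216, and 3 and 3 in SNU-601. The 2 called lower in SNU-216 are near the share of all genes there. STAG2, a cohesin subunit, had differences of 0.99 (SE 0.086, adjusted p = 3.5e-05), 0.42 (SE 0.086, adjusted p = 0.00633) and -0.11 (SE 0.086, adjusted p = 0.475), and its SNU-216 call was lost without SNU-216 CD133+ replicate 1 (adjusted p = 0.0505). ESCO1, an acetyltransferase of cohesin, had differences of 1.36 (SE 0.36, adjusted p = 0.0154), 1.10 (SE 0.36, adjusted p = 0.0499) and -0.55 (SE 0.36, adjusted p = 0.387). Its KATO-III call was lost without either KATO-III CD133+ array or CD133- replicate 1 (adjusted p up to 0.103). Its SNU-216 call, close to the threshold, was lost in 9 of the 12 fits that left out 1 array, the 4 KATO-III arrays, SNU-216 CD133+ replicate 1, both SNU-216 CD133- arrays and both SNU-601 CD133- arrays (adjusted p up to 0.311). Of the anaphase-promoting complex genes, 8 of 14 were called higher and 2 lower in KATO-III, 3 and 3 in SNU-216, and 3 and 1 in SNU-601. The SNU-216 counts of this ligase are not far from the shares of all genes. FBXO5, an inhibitor of that ligase, had differences of 0.68 (SE 0.053, adjusted p = 1.83e-05), 0.10 (SE 0.053, adjusted p = 0.222) and 0.40 (SE 0.053, adjusted p = 0.00165).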

How the data were processed

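Total expression was measured on 12 Illumina HT-12 v3 arrays, 2 for each CD133 fraction of KATO-III, SNU-216 and SNU-601, and the arrays were grouped by their labels. The authors deposited intensities on a linear scale, quantile-normalized and listed by gene symbol, and the submitters' processing notes name BeadStudio. The background subtraction and the rule for genes with several probes are not given in the sources used here, and 32.13% of the values are at or below 0. Subtracting a background makes the fold changes of dim genes unstable. Of 34688 rows 93 were empty.

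A floor of 32.7 replaced lower intensities before the log2 transform. It mirrors the percentile 1 of the values, which is negative. Genes that exceeded it on 2 arrays or more (20147, or 58.24%) were fitted with limma 3.58.1 in R 4.3.3, with a mean-variance trend. One model had a mean per population (6 residual degrees of freedom), from which the CD133 difference in each line, its difference between lines (F-test) and the contrasts of lines were taken. The other had cell line as a block (8 residual degrees of freedom). P-values were adjusted by Benjamini-Hochberg over all genes tested, at a threshold of 0.05. The code was tested on simulated data. Tables and figures were made with Python 3.11.15, numpy 2.4.6, pandas 2.3.3 and matplotlib 3.10.9. The number of arrays limits the precision.

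The members and lists were chosen with earlier results of these data known. The text names, for each role, the gene with the largest difference over lines and the gene with the smallest p for a difference between lines, the genes with a signal-to-noise ratio past 1 or -1, those called in opposite directions, and the 2 genes of each further list with the largest difference over lines. Other genes (NDC80, ECT2, SMC2, CDCA5, PTTG1, and those that make up a count of 5 or fewer) were named after their values were seen. The alternatives tried were other floors, an offset, 2 other scalings, 2 other filters, no trend, robust estimation, a replicate block, averaged arrays, a random block and the omission of each array.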

Additional observations from a re-analysis of the deposited data

Results flagged for a closer look

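Of the members that the text names by its stated rules, 18 had a CD133 difference that differed between the 3 lines. The test was limma's F-test in the model of 6 population means. This test called 44.4% of all genes tested and 35 of the 50 mitotic genes. CENPA, CENPE, MAD2L1, INCENP, SGOL2, CDC20, SMC4, TACC3 and ANLN had the smallest p of this test in their role, by which the text named them. Their p-values below are therefore no separate result. Among the kinetochore genes the adjusted p was 9e-05 for CENPA, 0.00152 for NUF2 and 0.000208 for CENPE. It was 0.000113 for BUB1, 4.38e-05 for MAD2L1 and 0.0329 for BUB3 among checkpoint genes, 0.000476 for INCENP, 0.00211 for SGOL1 and 0.00116 for SGOL2. For CDC20 and CDCA3 it was 5.14e-05 and 0.00781, for NCAPG and SMC4 0.0118 and 0.000364, and for ANLN 0.00075. Among spindle genes it was 0.000637 for TACC3, 0.00274 for HMMR, 0.00316 for CKAP2 and 0.00261 for NEK2.

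CENPA (0.51, -0.35 and 1.02 in KATO-III, SNU-216 and SNU-601), CENPE (0.71, -0.48 and 0.53) and CDC20 (-0.42, -0.07 and 0.68) were the ones with calls in both directions. For most of the others the sizes differed and the signs did not, with the lowest estimate in SNU-216 for BUB1, MAD2L1, SMC4, TACC3, ANLN, SGOL1, NCAPG, CDCA3, CKAP2 and NEK2. The arrays of a population may be technical replicates, and the F-test measures the difference between lines against the spread between them.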

How the results depend on the processing

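Under other floors, scalings, filters and variance settings, the counts of members called in each line stayed within 1.5 times those reported, except that 2 members in place of 1 were called lower in KATO-III with a floor of 100 and with no mean-variance trend. No value named in the text changed its sign past the threshold. Over the 3 lines the count of members called higher was 14 in place of 27 with no filter on dim genes, 0 when arrays were averaged within populations and 0 when the population was a random block, and the median difference was 0.34 with an offset of 100 in place of the floor, against 0.37. Averaging and the random block use fewer independent units by construction. The count of 27 takes the 2 arrays of a population as independent, while the random block fit estimated a correlation of 0.64 between them. Leaving out 1 array at a time gave 34 to 37 members higher and 1 to 2 lower in KATO-III, 11 to 18 and 2 to 4 in SNU-216, 29 to 38 and 0 in SNU-601, and 10 to 23 over lines. The medians ran from 0.50 to 0.61, 0.15 to 0.23, 0.37 to 0.43 and 0.33 to 0.40 in the same order, the count of members that differed between lines from 32 to 37, and the count with a signal-to-noise ratio above 1 from 7 to 13. The numbers 1 and 2 did not pair the arrays, since deviations of same-numbered arrays correlated at -0.012 to 0.028. With a replicate block 35, 19 and 36 members were called higher in KATO-III, SNU-216 and SNU-601, and 18 over lines. NUF2 in SNU-216 was not called with floors of 16 or 100 (adjusted p = 0.287 and 1.0). Values of dim genes such as NUF2, NCAPH and MKI67 are limited by their distance to the background.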

Other observations

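Genes of the G1/S transition and DNA replication, which are expressed earlier in the cell cycle than the mitotic genes, were called higher for 11 of 18 and lower for 2 in KATO-III, for 7 and 1 in SNU-216, and for 6 and 0 in SNU-601. The shares of all genes called higher and lower were 18.7% and 20.6% in KATO-III, 14.6% and 14.0% in SNU-216, and 8.59% and 7.78% in SNU-601. The median difference of the G1/S genes was 0.35, 0.08 and 0.09 in these lines. PCNA, the sliding clamp of DNA polymerase, read 2467 and 1856 (CD133+) against 785 and 595 (CD133-) in KATO-III, 2627 and 2038 against 1345 and 1577 in SNU-216, and 538 and 424 against 525 and 431 in SNU-601. Its difference was 1.65 (SE 0.21, adjusted p = 0.000265) in KATO-III, 0.67 (SE 0.21, adjusted p = 0.0397) in SNU-216 and 0.01 (SE 0.21, adjusted p = 1.0) in SNU-601, and its SNU-216 call was lost in 8 of the 12 fits that left out 1 array (both KATO-III CD133+ arrays, the 4 SNU-216 arrays and both SNU-601 CD133- arrays, adjusted p up to 0.244). CDC6, which loads the replicative helicase, had differences of 0.39 (SE 0.13, adjusted p = 0.0386), 0.56 (SE 0.13, adjusted p = 0.0102) and 0.53 (SE 0.13, adjusted p = 0.0241). Its KATO-III call was lost in 6 of these fits, its SNU-216 call in 2 (SNU-216 CD133+ replicate 2 and CD133- replicate 1) and its SNU-601 call in 3 (SNU-601 CD133+ replicate 2 and both CD133- arrays). The 6 KATO-III fits lacked 1 of the 4 KATO-III arrays or of the 2 SNU-601 CD133- arrays. In SNU-601 the mitotic genes had a median difference of 0.37 and the G1/S genes one of 0.09, a contrast that was not tested. ANAPC10, a subunit of the anaphase-promoting complex, had differences of 0.79 (SE 0.063, adjusted p = 2.05e-05), 0.22 (SE 0.063, adjusted p = 0.0277) and 0.11 (SE 0.063, adjusted p = 0.296). The SNU-216 call of ANAPC10 was lost without any 1 of the 4 SNU-216 arrays (adjusted p up to 0.149).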
